A study of Mus musculus with 67 samples.

Results

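Dark-phase liver was compared with light-phase liver in wild-type (WT) C57BL/6 mice on a high-fat diet under time-restricted feeding. Zeitgeber time (ZT) counts hours from lights-on, so ZT4 and ZT8 fall in the light and ZT16 and ZT20 in the dark. The comparison holds 8 of the series' 67 libraries, chosen by genotype, feeding and time alone: 4 dark (2 each at ZT16 and ZT20) and 4 light (2 each at ZT4 and ZT8). All mice were 24 weeks old, carried no engineered allele in the WT group, and had eaten the high-fat diet for 12 weeks. The sources used here give neither the feeding hours nor the light schedule, so a dark-minus-light difference holds both the time of day and the time relative to meals. Comparison groups were 8 WT libraries of the same times from mice fed the same diet ad libitum, and 4 libraries (1 a time) from restricted mice with a liver knockout of Bmal1 (symbol Arntl; Bmal1LKO). The other WT restricted libraries, 1 at ZT12 and 2 at ZT24, are given as description. No label ties a library to its own animal, so the p-values cover only the spread among these libraries, which may be technical.

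The liver clock is a feedback loop. BMAL1 and its partners CLOCK or NPAS2 bind E-box DNA and switch on the Period and Cryptochrome genes, whose proteins block that activity. A second loop is made by the REV-ERB repressors and the ROR activators, which compete for the same DNA sites in target genes such as Arntl, Nfil3 and Cry1. Feeding, insulin and body temperature also set rhythms in liver, and heat shock factor HSF1 drives chaperone genes through a heat shock element.

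The promoters below are shown because Cry1 gave the smallest p of the comparison and because every heat shock gene tested was higher in the dark on average. Each is the 250 bases before the RefSeq start site on GRCm38.p6, read 5′ to 3′ along the gene's own strand. The capitals in Cry1 (chr10:85185055-85185304, minus strand) mark an E-box, CACGTG, whose first base lies 60 bases before the start. In the others they mark the heat shock letters GAANNTTC, where N is any base, and both motifs read the same on either strand. These letters begin 104 bases before the start of Hspa1b (chr17:34959239-34959488, minus strand), 124 before that of Dnaja1 (chr4:40722218-40722467, plus strand) and 84 before that of Hspe1 (chr1:55087898-55088147, plus strand).
Cry1: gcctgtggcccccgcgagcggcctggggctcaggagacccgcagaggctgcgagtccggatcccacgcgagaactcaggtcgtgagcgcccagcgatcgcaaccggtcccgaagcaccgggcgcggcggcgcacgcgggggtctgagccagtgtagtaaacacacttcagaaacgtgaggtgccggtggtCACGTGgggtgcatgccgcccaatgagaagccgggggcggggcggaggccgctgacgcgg
Hspa1b: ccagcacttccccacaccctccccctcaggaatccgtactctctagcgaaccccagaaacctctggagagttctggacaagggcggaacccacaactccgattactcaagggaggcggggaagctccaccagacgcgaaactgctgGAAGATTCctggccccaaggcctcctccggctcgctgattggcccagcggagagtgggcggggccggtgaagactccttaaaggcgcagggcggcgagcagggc
Dnaja1: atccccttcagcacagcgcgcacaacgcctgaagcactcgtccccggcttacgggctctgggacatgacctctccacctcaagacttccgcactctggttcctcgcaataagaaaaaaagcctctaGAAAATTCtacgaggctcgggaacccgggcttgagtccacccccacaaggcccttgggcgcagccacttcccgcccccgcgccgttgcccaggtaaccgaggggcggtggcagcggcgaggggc
Hspe1: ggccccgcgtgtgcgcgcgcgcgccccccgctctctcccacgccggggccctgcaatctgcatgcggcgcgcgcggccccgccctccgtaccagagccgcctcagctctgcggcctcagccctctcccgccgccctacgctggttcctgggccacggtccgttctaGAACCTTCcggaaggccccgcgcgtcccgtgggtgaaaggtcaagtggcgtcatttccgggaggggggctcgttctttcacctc

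GAANNTTC was in a RefSeq promoter window (250 bases before to 50 after the start) of 9 of the 13 heat shock genes that have one, or 69.2%, against 9.04% of 27025 genes and 7.86% of 32851 windows. It was in none of the windows of 18 endoplasmic reticulum (ER) chaperone genes. CACGTG was in windows of 4 of 16 clock and clock-output genes (25.0%), against 8.09% of genes and 7.15% of windows. A match is a description of letters and not of binding.

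The 8 libraries held 9.69 to 21.4 M counted reads, worked out from the steps between low FPKM values (fragments per kilobase of exon per 1 M counted). The slope of expression on GC content, in log2 per 10 points of GC, differed between replicate numbers and, within each number, was lower in the dark. Replicate 1 libraries had -0.11 and -0.077 in the light and -0.25 and -0.39 in the dark, and replicate 2 libraries -0.58 and -0.54 in the light and -1.05 and -0.92 in the dark. Hepatocyte markers were present throughout, 11 of 11 at 1 FPKM or more, summing to 63301 to 90063 FPKM. Pancreas markers were not: of 29, 22 stood at 1 FPKM or more in each ZT16 library and 1 or 2 in each of the other 6. Their sum was 2197 and 358 FPKM at ZT16, 36.0 to 70.4 in the light and 44.3 and 25.8 at ZT20. Clps, the pancreatic colipase gene, was at 205 and 16.8 FPKM at ZT16 and at 0 in the other 6 libraries. In bulk liver, more cells of a type and more RNA per cell cannot be told apart. Summed markers ran from 312 to 712 FPKM for immune, 73.1 to 115 for endothelial, 210 to 331 for stellate, 41.0 to 89.2 for bile duct, 132 to 598 for erythroid and 511 to 1548 for adipocyte genes, with dark and light ranges overlapping.

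**Figure D1:**
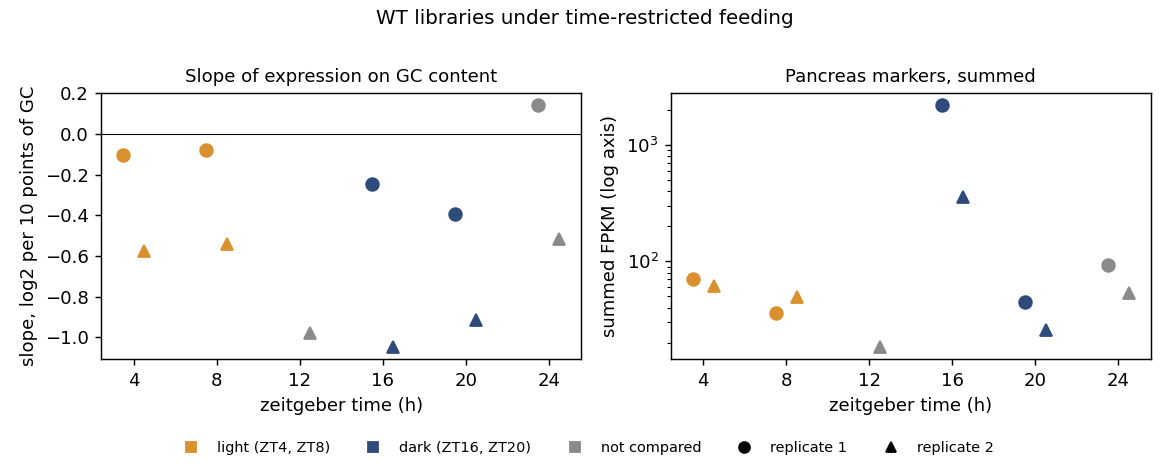
Slope of expression on GC content (left, log2 per 10 points of GC) and summed FPKM of 29 pancreas markers (right, log axis) in each WT restricted library by zeitgeber time. Replicate 2 libraries have the lower slope at every time with both, and the ZT16 libraries hold 2197 and 358 FPKM of pancreas markers.

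Few genes separated dark from light when each library was treated as independent. Of 9944 genes tested, 4 rose and 2 fell in the dark at an adjusted p under 0.05, which is 0.0603% of genes (0.0402% higher, 0.0201% lower), and 1178 (11.8%) had an unadjusted p under 0.05. These p-values are limma's, adjusted by the Benjamini-Hochberg method over all genes tested. Libraries of the same replicate number deviated together, but the labels do not say what the number stands for or that such libraries are pairs. The same limma test with the replicate number as a block is called the paired test from here on. It gave 102 genes that rose and 545 that fell, 6.51% of genes (1.03% and 5.48%). All 6 unpaired calls were among them. In 246 genes (2.47%) every dark library was above every light one, and in 450 (4.53%) every dark library was below. The median difference over all genes was -0.04 on the log2(FPKM + 1) scale, which understates the change of low genes.

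Paired calls went with GC content: those that fell had a median of 56.5% GC and those that rose 44.6%, against 49.4% over all genes. With values corrected for GC and gene length in each library, the paired test gave 30 genes that rose (0.313%) and 116 that fell (1.21%), 1.52% in all, 104 of them called the same way without the correction. The paired count also rested on single libraries. It was 3 to 5 without any 1 of the 4 light libraries, 24 without ZT20 replicate 1, 280 without ZT16 replicate 1, and 515 and 526 without the remaining dark libraries. For this reason a gene below is said to rise or fall with the test that called it named.

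The smallest p of the unpaired test was that of Cry1. Cry1, which encodes a repressor of BMAL1 and CLOCK, lies on chromosome 10 (GRCm38, chr10:85131700-85185064). It was at 3.70, 3.81, 1.66 and 2.46 FPKM in the light (ZT4, ZT4, ZT8, ZT8) and at 17.5, 15.8, 19.1 and 23.01 in the dark (ZT16, ZT16, ZT20, ZT20), so the lowest dark library stood well above the highest light one. It went from 2.91 ± 1.03 (SD, n = 4) to 18.9 ± 3.06 FPKM. On the log2(FPKM + 1) scale it rose by 2.37 ± 0.22 (SE, limma adjusted p = 0.00595). That is a 5.18-fold change of FPKM + 1, which is smaller than the change of FPKM itself. The call held with any 1 of the 8 libraries left out. Without both ZT16 libraries no gene passed, Cry1 being at 2.53 (adjusted p = 0.110), and without both ZT20 libraries it was at 2.22 (adjusted p = 0.0515).

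Lingo4 (chr3:94398517-94404501) is best known as a gene of the nervous system. It was at 0.182 to 0.433 FPKM in the light and 1.85 to 2.25 in the dark and rose by 1.18 ± 0.13 (limma adjusted p = 0.0101). An antisense gene model, Gm43401, overlaps Lingo4 over 4332 bases, and with the strand setting of the counting unknown their reads cannot be told apart. Ces1d, a carboxylesterase gene of lipid hydrolysis (chr8:93166068-93197838), was at 87.2 to 159 FPKM in the light and 419 to 577 in the dark, a rise of 1.98 ± 0.24 (adjusted p = 0.0208). It has near-identical neighbours in the Ces1 cluster, so its level is uncertain. The call for Lingo4 held in 6 of 8 fits that left out 1 library, not without ZT4 or ZT8 replicate 2, and that for Ces1d in 1 of 8, without ZT20 replicate 1.

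Inca1, which encodes an inhibitor of a cyclin A1 and CDK2 complex, fell (chr11:70688361-70700155). It was at 15.6, 14.8, 19.2 and 20.4 FPKM in the light and 8.06, 5.45, 6.31 and 5.26 in the dark, a difference of -1.35 ± 0.19 (limma adjusted p = 0.0467). Wbscr27, named Mettl27 in RefSeq, encodes a predicted methyltransferase. It was at 2.81 to 3.79 FPKM in the light and 0.951 to 1.43 in the dark and fell by 1.06 ± 0.14 (adjusted p = 0.0467). With 1 library left out Inca1 passed in 1 of 8 fits, without ZT16 replicate 1, and Wbscr27 in 0 of 8, although in each gene no dark library reached the lowest light one.

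Among the clock's own repressors, Nr1d1 moved opposite to Cry1. Nr1d1 encodes REV-ERB alpha, the repressor of Arntl, and was at 4.43, 7.53, 20.4 and 12.1 FPKM in the light and 1.64, 0.401, 0.232 and 0.122 in the dark. No dark library came near the light ones, and the difference was -2.83 ± 0.41 (unpaired limma adjusted p = 0.0528); it fell in the paired test (adjusted p = 0.0201). Its 3′ end overlaps Thra on the other strand over 1075 bases. Per2, a Period repressor, was at 1.09 to 4.07 FPKM in the light and 5.16 to 8.25 in the dark, a difference of 1.15 ± 0.29 that was not called by the unpaired (adjusted p = 0.267) or the paired test (adjusted p = 0.0537), and was called in the paired test on GC-corrected values (adjusted p = 0.0475).

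Arntl, Dbp and Nr1d2 overlapped between phases. Arntl and Dbp were far apart within the light phase, whereas Nr1d2 differed more from ZT16 to ZT20 (-2.64) than from ZT4 to ZT8 (1.52). Of 9 repressors, 1 rose (Cry1) and 1 fell (Nr1d1) in the paired test, against 1.03% and 5.48% of all genes. None of 7 D-box and output factors was called. The activators Clock, Npas2 and Rora differed by 0.41, 0.09 and 0.23, and the other repressors by -0.15 (Per1), -0.11 (Per3), 0.20 (Cry2), 0.18 (Bhlhe40), -0.60 (Ciart) and -0.78 (Nr1d2), none of them called. Arntl was at 11.5 and 7.83 FPKM at ZT4, 0.416 and 0.585 at ZT8, 7.29 and 5.38 at ZT16, and 12.4 and 12.4 at ZT20. ZT8 was thus the low point of the 4 times and the phase means differed by only 1.31 ± 0.68. Dbp, an output activator that binds D-box DNA, showed the reverse, at 0.172 and 0.750 FPKM at ZT4, 28.7 and 17.2 at ZT8, 2.83 and 1.88 at ZT16, and 0.858 and 0.593 at ZT20. Nr1d2, which encodes REV-ERB beta, was at 5.42 and 15.6 FPKM at ZT4, 23.5 and 34.5 at ZT8, 15.6 and 37.5 at ZT16, and 2.09 and 4.36 at ZT20. At ZT24 Arntl was at 12.6 and 11.9 and Cry1 at 13.0 and 10.6 FPKM, and the ZT12 library had 0.892 of Arntl, 6.62 of Cry1 and 39.1 of Nr1d2.

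**Figure D2:**
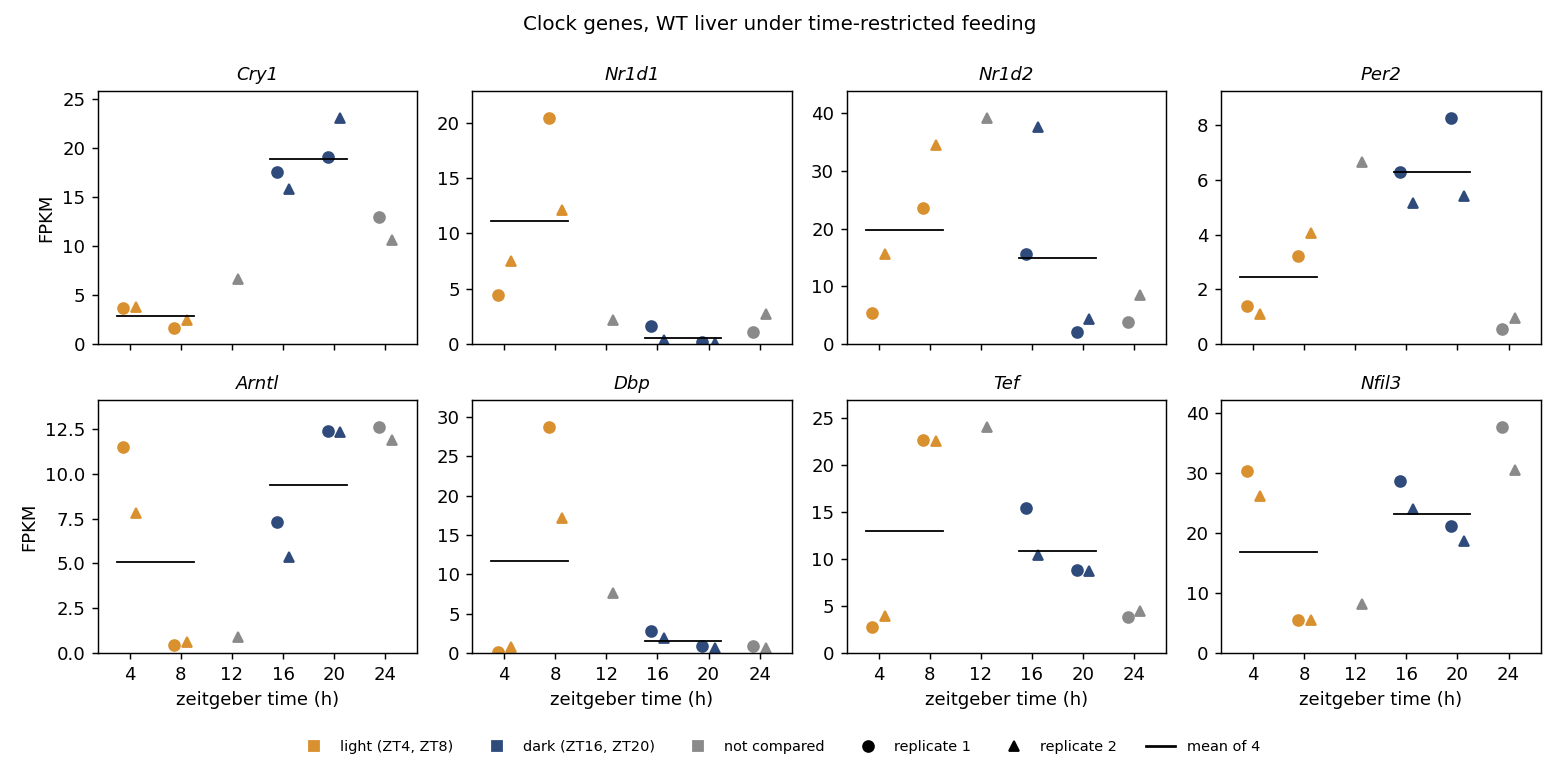
FPKM of clock genes in each WT restricted library by zeitgeber time, 1 panel a gene, with ZT12 and ZT24 libraries shown as well. Cry1 lies at 15.8 to 23.01 FPKM in the dark against 1.66 to 3.81 in the light, whereas Arntl and Dbp change most between ZT4 and ZT8.

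Within the light phase, 8 of 9944 genes differed between ZT4 and ZT8 by limma, 0.0805% of genes, and 7 of the 8 are clock or clock-controlled genes. Arntl fell by 2.81 ± 0.25 from ZT4 to ZT8 (adjusted p = 0.0357) and Nfil3, a repressor at D-box sites, fell by 2.17 ± 0.22. Dbp rose by 4.02 ± 0.32, Tef, a related D-box activator, by 2.44 ± 0.25, Per3 by 1.54 ± 0.16, Ciart, a repressor of the BMAL1 complex, by 2.62 ± 0.28, and Usp2, a deubiquitinase gene under clock control, by 2.68 ± 0.30. Dbp overlaps Sphk2 on the other strand over 737 bases. The last gene was Gm24601, a short unnamed RNA gene model that fell by 2.49 ± 0.23 and is named because the count is small. Each of these genes lay on one side at ZT4 and on the other at ZT8 in all 4 light libraries. The count was 16 in the paired test (0.161%) and 0 to 7 with 1 library left out: 5 without ZT8 replicate 2, 7 without either ZT16 library and 0 without any of the others.

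Heat shock genes were higher in the dark as a group. All 16 tested had a difference above 0, with a median of 0.95 against -0.04 over all genes, and in 10 the dark and light libraries did not overlap, where 2.47% of all genes were higher without overlap. None passed the unpaired test, and 6 rose in the paired test (background 1.03%). Hsp90aa1, the inducible cytosolic HSP90, was at 7.80, 10.5, 5.70 and 12.1 FPKM in the light and 30.3, 35.6, 24.4 and 23.2 in the dark, a difference of 1.58 ± 0.20 (paired limma adjusted p = 0.0161; unpaired adjusted p = 0.0695). Hspa4l, a nucleotide exchange factor of HSP70, was at 4.70 to 9.26 FPKM in the light and 16.1 to 25.8 in the dark, 1.45 ± 0.17 higher (paired adjusted p = 0.0132). Both were separated by phase without overlap.

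Hsph1, another HSP70 exchange factor, was at 7.83 to 20.5 FPKM in the light and 21.7 to 39.5 in the dark, 1.34 ± 0.29 higher (paired adjusted p = 0.0385). Chordc1, an HSP90 co-chaperone gene, was at 18.5 to 37.1 FPKM in the light and 39.2 to 131 in the dark, 1.22 ± 0.24 higher (paired adjusted p = 0.0310). Dnaja1, an HSP40 gene, was at 7.51 to 17.7 and 16.04 to 39.1, 0.98 ± 0.19 higher (paired adjusted p = 0.0315), its ranges overlapping. Dnaja1 overlaps Smu1 on the other strand over 608 bases, and Smu1 had the higher mean (30.9 against 18.7 FPKM). Reads there cannot be told apart. Hspa1b, an inducible HSP70 gene whose promoter is printed above, was at 1.01, 1.05, 0.762 and 4.02 FPKM in the light and 3.74, 9.16, 3.91 and 4.77 in the dark. The ZT8 replicate 2 library reached the dark range, and Hspa1b rose by 1.31 ± 0.28 in the paired test (adjusted p = 0.0363). Hspa1b has a near-identical copy, Hspa1a, that the counting could have split from it. The members that were not called included Hspa8, the constitutive HSP70, at 147 and 164 FPKM at ZT16, 55.2 and 50.4 at ZT20 and 35.9 to 46.5 in the light, and Bag3 at a difference of 0.21.

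The heat shock median against the light libraries was 1.34 at ZT16 and 0.55 at ZT20, and 2 of the 16 genes were lower at ZT20 than at ZT16 in the paired test. The pancreas markers, at 2197 and 358 FPKM at ZT16, moved with the former. What part they had in it was not tested. Against ZT20 alone, where 2.82% of all genes rose in the paired test, 5 of 16 rose, Hsp90aa1 by 1.35 and Hspa4l by 1.26 among them, and 16 of 16 were above 0. In that fit Clps was at 0 in every library. The count of 6 became 4 on GC-corrected values, 0 without any 1 of the 4 light libraries (where 3 to 5 genes of the whole table passed), 1 without ZT20 replicate 1, 2 without ZT16 replicate 1 and 11 without ZT20 replicate 2.

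Genes of the cold-inducible RNA-binding list did not move together. Cirbp, which encodes the cold-inducible RNA-binding protein, was at 5.31, 4.30, 5.92 and 3.70 FPKM in the light and 2.00, 0.868, 1.24 and 1.03 in the dark. No library overlapped, and it fell by 1.35 ± 0.12 in the paired test (limma adjusted p = 0.00716; unpaired adjusted p = 0.0525). Rbm3, the other well-known cold-inducible gene, was at 2.16 to 2.46 FPKM in the light and 1.95 to 4.37 in the dark, a difference of 0.18 ± 0.18.

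**Figure D3:**
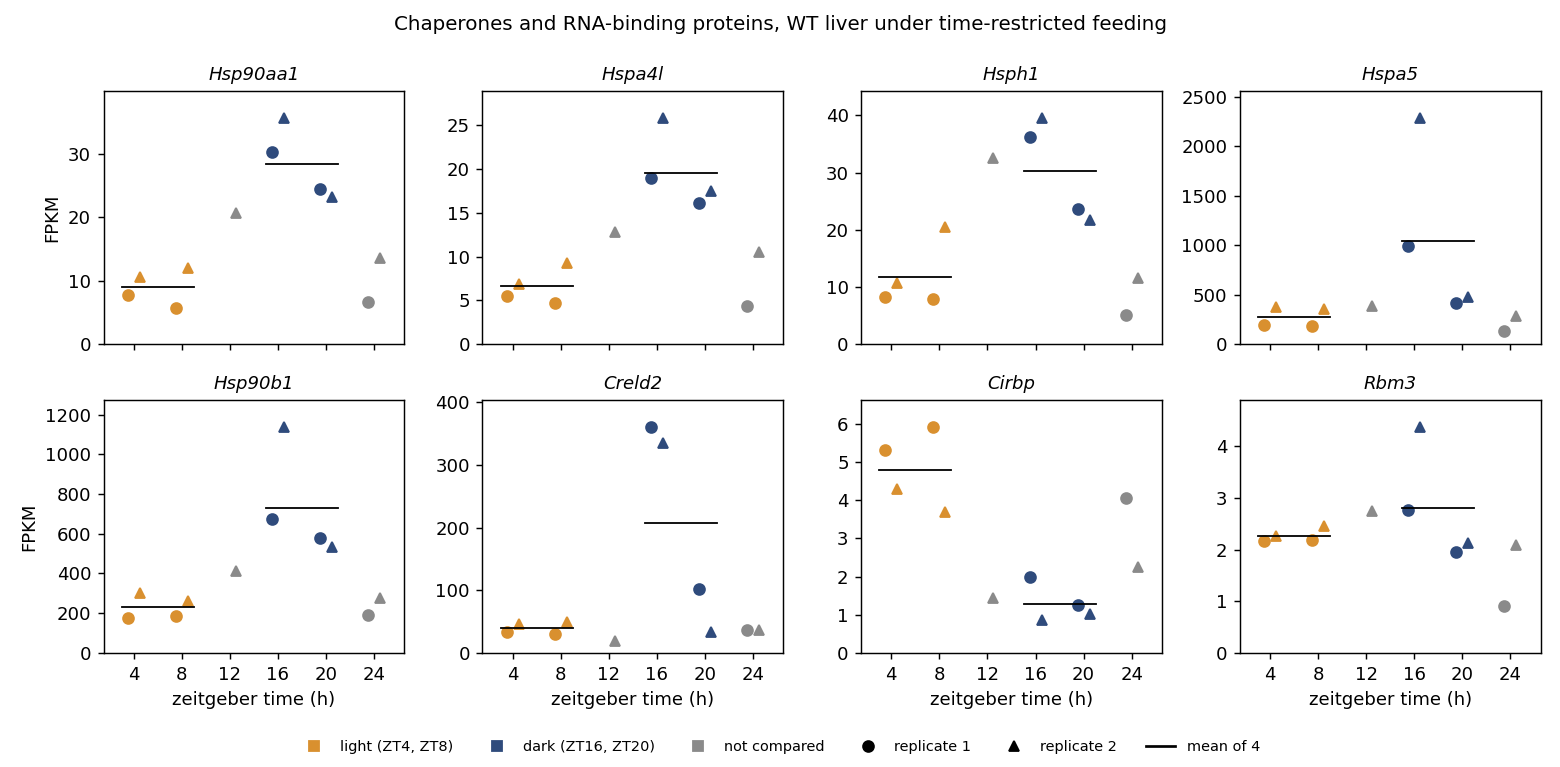
FPKM of heat shock, cold-inducible and ER chaperone genes in each WT restricted library by zeitgeber time, 1 panel a gene. Hsp90aa1 lies at 23.2 to 35.6 FPKM in the dark and 5.70 to 12.1 in the light, and Cirbp at 0.868 to 2.00 against 3.70 to 5.92.

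Chaperones and folding enzymes of the ER were also higher in the dark. All 20 genes tested were above 0 with a median of 0.80, 8 of them without overlap (background 2.47%), and 6 rose in the paired test (background 1.03%) and none in the unpaired one. On values scaled to the same sum, which moves the median of all genes to -0.15, 19 of 20 were above 0. Hsp90b1, the ER HSP90, was at 178, 299, 185 and 260 FPKM in the light and 674, 1138, 578 and 533 in the dark, 1.63 ± 0.24 higher (paired limma adjusted p = 0.0185). Every dark library was above the light range. Pdia4, a protein disulfide isomerase, was at 76.6 to 124 FPKM in the light, 332 and 403 at ZT16 and 196 and 150 at ZT20, 1.38 ± 0.32 (adjusted p = 0.0444), and Pdia3 at 175 to 402, then 438, 996, 485 and 527, 1.22 ± 0.23 (adjusted p = 0.0287). Dnajc3, a co-chaperone of BiP, rose by 0.99 ± 0.16, Sel1l, of the ER degradation complex, by 0.75 ± 0.15, and Canx, calnexin, by 0.56 ± 0.13.

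As in the heat shock list, the ER differences were unequal between the dark times. The ER median was 1.32 at ZT16, where the pancreas markers stood at 2197 and 358 FPKM, and 0.58 at ZT20, where they stood at 44.3 and 25.8. Hspa5, which encodes the ER chaperone BiP, was at 189 to 373 FPKM in the light, 997 and 2281 at ZT16 and 418 and 476 at ZT20, and Creld2 at 29.9 to 49.4, then 361, 336, 102 and 32.7. Neither passed the paired test (adjusted p = 0.0729 and 0.147). Against ZT20 alone 7 of 20 rose in the paired test (background 2.82%), among them Hsp90b1 by 1.30, Pdia3 by 1.02, Dnajc3 by 0.94, Hspa5 by 0.76 and Canx by 0.62, a fit in which no library holds Clps. There 16 of 20 were above 0, and Dnajb9, Herpud1, Syvn1 and Xbp1 were below it, at -0.45, -0.56, -0.21 and -0.073. Over both dark times the paired count was 3 on GC-corrected values, 0 without any 1 light library or without ZT20 replicate 1, 2 without ZT16 replicate 1 and 12 without ZT20 replicate 2.

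Lipid and sterol genes were called singly and not as whole pathways. None of 19 fatty acid synthesis and 25 cholesterol synthesis genes was called by either test, with medians of -0.07 and -0.18 over both dark times. Against the light libraries the fatty acid median was -0.35 at ZT16 and 0.18 at ZT20. The cholesterol median was -0.34 at ZT16 and 0.02 at ZT20. Srebf1, the lipogenic transcription factor gene, had 16.5, 6.99, 31.6 and 16.5 FPKM in the light and 7.65, 1.09, 13.0 and 5.93 in the dark, overlapping, with a difference of -1.37 ± 0.43 (paired limma adjusted p = 0.0890). Of 15 bile acid genes 2 fell in the paired test (5.48% of all genes fell), both subunits of the sterol exporter to bile. Abcg8 was at 17.2 to 35.8 FPKM in the light and 2.66 to 8.98 in the dark and fell by 1.93 ± 0.27 (adjusted p = 0.0161). Abcg5 was at 20.1 to 42.9 and 9.99 to 18.4 FPKM and fell by 1.16 ± 0.27 (adjusted p = 0.0420). They lie head to head on chromosome 17 and their RefSeq models share 6710 bases on opposite strands, so reads there cannot be told apart. Cyp7a1, which catalyses the first and limiting step of bile acid synthesis, was at 24.2 to 84.4 and 32.7 to 136 FPKM, a difference of 0.02.

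Hsd3b7, a later enzyme of bile acid synthesis outside that list, and Soat2, which esterifies cholesterol, fell in the paired test without overlap. Hsd3b7 was at 94.7 to 145 FPKM in the light and 41.2 to 54.8 in the dark (-1.25 ± 0.19), and Soat2 at 8.10 to 13.9 and 3.07 to 6.45 (-1.20 ± 0.15). Among 26 fat oxidation and ketogenesis genes 1 rose and 1 fell in the paired test, against 1.03% and 5.48% of all genes. Acot1, an acyl-CoA thioesterase gene, was at 1.57 to 5.18 FPKM in the light, 25.5 and 11.9 at ZT16 and 8.31 and 12.8 at ZT20. Acot1 rose by 1.65 ± 0.33 (paired limma adjusted p = 0.0321). Bdh1, which interconverts the ketone bodies, was at 57.1 to 91.9 FPKM in the light and 24.1 to 49.0 in the dark and fell by 0.87 ± 0.18. Of 17 lipid droplet genes 2 fell in the paired test (background 5.48%). Pnpla2, the triglyceride lipase ATGL, fell by 1.02 ± 0.20 and Cideb by 0.74 ± 0.17. Both overlapped between phases and separated only within a replicate number: Pnpla2 had 13.4 and 15.6 FPKM in light replicate 1 libraries against 10.1 and 4.79 in dark ones, and 6.21 and 7.62 in light replicate 2 libraries against 2.82 and 2.58.

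Single genes of amino acid, glucose and NAD metabolism were called in the paired test, by which 5.48% of all genes fell and 1.03% rose. Calls that fell were thus the more frequent kind in the whole table, not only in these lists. Agxt, the glyoxylate aminotransferase, was at 136 to 220 FPKM in the light and 42.9 to 84.8 in the dark and fell by 1.49 ± 0.16 (limma adjusted p = 0.0122). Sds, serine dehydratase, the 1 of 20 gluconeogenesis and fasting genes called, was at 61.5, 28.8, 58.0 and 52.6 FPKM, then 37.0, 10.9, 14.4 and 8.07, and fell by 1.64 ± 0.32. Pck1 and G6pc, the classical gluconeogenic enzymes, differed by -0.39 ± 0.30 and 0.44 ± 0.26 and were not called. Cbs, of cysteine synthesis, the 1 of 21 amino acid and urea cycle genes, fell by 1.34 ± 0.31.

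Of 19 glucose use genes 4 fell in the paired test (background 5.48%), with a median of -0.15 over the list against -0.04 over all genes. They were Pfkfb3, which makes the activator of phosphofructokinase (3.03 to 6.31 FPKM in the light, 1.44 to 2.28 in the dark), Gckr, the glucokinase regulator (43.5 to 52.1 and 30.0 to 32.9), and the pentose phosphate enzymes Tkt and Pgd, by 0.92, 0.58, 0.66 and 0.48. Pfkfb3 was highest at ZT12, at 13.5 FPKM. Of 11 NAD and one-carbon genes 3 fell (background 5.48%), with a list median of -0.0029: Nadsyn1, the NAD synthetase (-0.95 ± 0.15), Nmnat3 (-0.65 ± 0.14) and Qprt (-0.63 ± 0.13). Acmsd, which diverts tryptophan breakdown away from NAD, was at 6.99 to 22.8 FPKM in the light and 26.4 to 62.1 in the dark and rose by 1.28 ± 0.31 (adjusted p = 0.0479). Of 18 autophagy and lysosome genes 2 fell against the same background of 5.48%, Ulk1, the kinase that starts autophagy, at 4.84 to 10.2 FPKM in the light and 1.63 to 4.55 in the dark (-1.15 ± 0.16), and Gabarapl1 (-0.85 ± 0.21).

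Other paired calls of large size without overlap were Cml5 (Nat8f5 in RefSeq), an N-acetyltransferase family gene, 4.62 to 19.3 FPKM in the light and 30.9 to 69.5 in the dark (2.02 ± 0.37), and Ccbl2 (Kyat3), a kynurenine aminotransferase, 15.1 to 29.2 and 40.1 to 115 (1.41 ± 0.32). Those that fell were Gstm4, a glutathione transferase (-1.35 ± 0.19), Arrdc3, an arrestin family gene (-1.10 ± 0.20), and Acy3, an aminoacylase gene (-1.09 ± 0.21). GC correction kept the paired call of Cirbp, Nr1d1, Abcg8, Hsd3b7, Soat2, Agxt, Sds, Cbs, Gckr, Pgd, Ulk1, Gabarapl1, Nadsyn1, Gstm4, Arrdc3, Hsp90aa1, Hspa4l, Hspa1b, Hsp90b1, Pdia3 and Dnajc3. With it the adjusted p came to 0.0569 to 0.259, and the call was lost, for Abcg5, Acot1, Bdh1, Pnpla2, Cideb, Pfkfb3, Tkt, Nmnat3, Qprt, Acmsd, Acy3, Eng, Hsph1, Chordc1, Dnaja1, Pdia4, Sel1l and Canx. The differences of these genes kept their sign. Some hardly moved, such as Abcg5 (-1.16 and -1.17 with the correction), Hsph1 (1.34 and 1.31), Cideb (-0.74 and -0.72) and Sel1l (0.75 and 0.74). Others became smaller, such as Tkt (-0.66 and -0.39), Eng (-0.73 and -0.40) and Canx (0.56 and 0.34). Cml5 and Ccbl2 had no GC value under these symbols.

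The remaining lists held no call in either test, or 1. Of 13 endothelial markers 1 fell in the paired test (background 5.48%). It was Eng, an endothelial TGF-beta co-receptor (-0.73 ± 0.15), with overlapping levels. No member was called among 18 cytosolic ribosomal protein (median 0.02), 21 ribosome biogenesis (0.05), 14 glucocorticoid-responsive (-0.03), 11 immediate early (0.10), 20 acute phase (-0.25), 17 xenobiotic (0.04), 12 Nrf2 (-0.06), 17 male-biased (0.14), 11 ATF4 (-0.30), 8 cell cycle (0.08) and 5 female-biased genes (-0.28), or among 11 hepatocyte, 14 immune, 11 stellate, 2 bile duct, 3 adipocyte and 5 erythroid markers. The 20 pancreas genes tested had a median of 2.19 and none was called, their 4 dark values falling apart between ZT16 and ZT20.

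**Figure D4:**
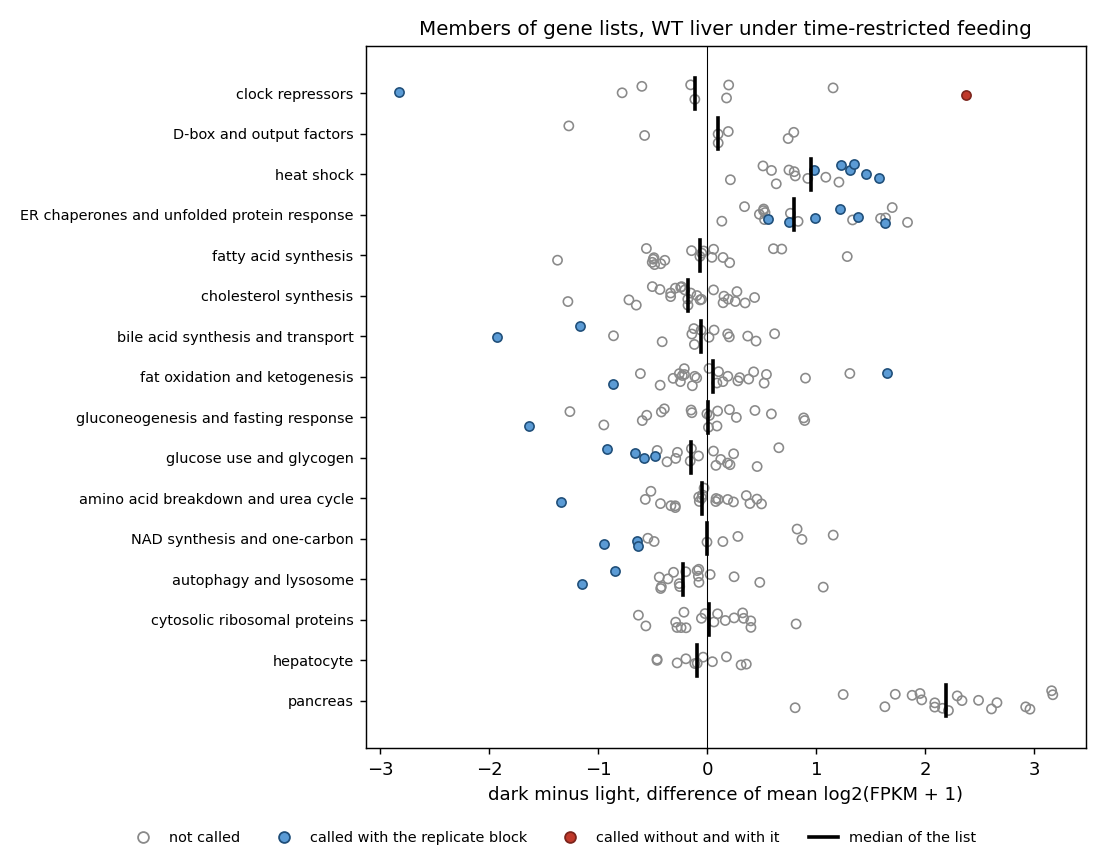
Dark-minus-light difference of each tested member of the gene lists (difference of mean log2(FPKM + 1)), 1 line a list. All 16 heat shock and all 20 ER chaperone genes lie right of 0, and the pancreas list, with a median of 2.19, is the farthest from 0.

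The dark libraries divided by time. Between ZT20 and ZT16 no gene passed the unpaired limma test (0% of 9944, with 1371 or 13.8% at an unadjusted p under 0.05), and in the paired test 246 were higher and 451 lower at ZT20, 7.01% in all (2.47% and 4.54%). With values corrected for GC and length the paired count was 352. Lower at ZT20 were 17 of 20 pancreas genes and 9 of 18 cytosolic ribosomal protein genes, whose median was -0.96. Rps21, of the small ribosomal subunit, was at 38.0 and 22.3 FPKM at ZT16 and 13.2 and 6.94 at ZT20 (-1.51). Nr1d2 was lower by 2.64, Upp2, a uridine phosphorylase gene, by 2.10, from 51.2 and 90.6 FPKM to 10.8 and 20.9, and Txnip, a glucose-responsive gene, by 1.70. Higher at ZT20 were Apob, the main protein of very-low-density lipoprotein, from 160 and 143 FPKM to 429 and 418 (1.48), Fasn, the fatty acid synthase, from 5.38 and 1.22 to 14.6 and 4.89 (1.35), Pik3r1, a regulatory subunit of PI3 kinase, from 5.16 and 5.33 to 13.2 and 14.4 (1.24), and Slc30a10, a manganese transporter gene, from 7.11 and 6.25 to 20.5 and 20.97. For Apob both ZT16 libraries were below, and both ZT20 libraries above, the light range of 193 to 217 FPKM. These genes were picked after their values were seen.

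Dark-minus-light differences did not differ detectably between restricted and ad libitum WT. The test of the difference called 0 of 9944 genes (0%) by limma, with 325 (3.27%) at an unadjusted p under 0.05 and 846 (8.51%) with a replicate block, which also called 0. Cry1 differed by 2.21 ad libitum, at 1.75 to 3.66 FPKM in the light and 14.8 to 18.8 in the dark. Nr1d1 was at -3.62 ad libitum against -2.83. Hsp90b1 was at 0.36 ad libitum (164 to 305 FPKM in the light, 203 to 431 in the dark) against 1.63 restricted, a difference of 1.26 ± 0.43 (unadjusted p = 0.00925, adjusted p = 0.821), and Hsd3b7 at -0.30 against -1.25 (unadjusted p = 0.0126). The heat shock median was 0.74 ad libitum and the ER median 0.46, with a median over all genes of 0.02. The ad libitum libraries had GC slopes of 0.028 to 0.51, all above the restricted ones. Their mt-Nd6, a mitochondrial gene that lies opposite to mt-Nd5, was at 0.55 to 1.87% of mt-Nd5, against 5.87 to 15.7% in the restricted libraries. What part these had in the comparison was not tested.

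Against restricted Bmal1LKO the same test called 0 genes (0%), with 261 (2.62%) at an unadjusted p under 0.05. Arntl itself was at 3.39, 2.00, 2.46 and 3.84 FPKM in these libraries (ZT4, ZT8, ZT16, ZT20), a sum over all exons that does not check the deletion. Lingo4 was at 2.05 to 2.96 FPKM at all 4 times (difference 1.26 ± 0.22, adjusted p = 0.175), and Cry1 at 16.9, 19.0, 24.5 and 25.5 (1.91 ± 0.35, adjusted p = 0.220). Nr1d1 was at 0.743, 2.70, 1.03 and 0.388 FPKM, all below the light range of restricted WT. Ces1d was at 6.97, 11.7, 25.0 and 35.1 FPKM, below every WT library of either feeding compared here, with a dark-minus-light difference of 1.61 against 1.98. Cirbp and Abcg8 had differences of -1.89 and -2.02. Both comparisons use the same WT restricted libraries, and Bmal1LKO has 1 library a time.

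**Figure D5:**
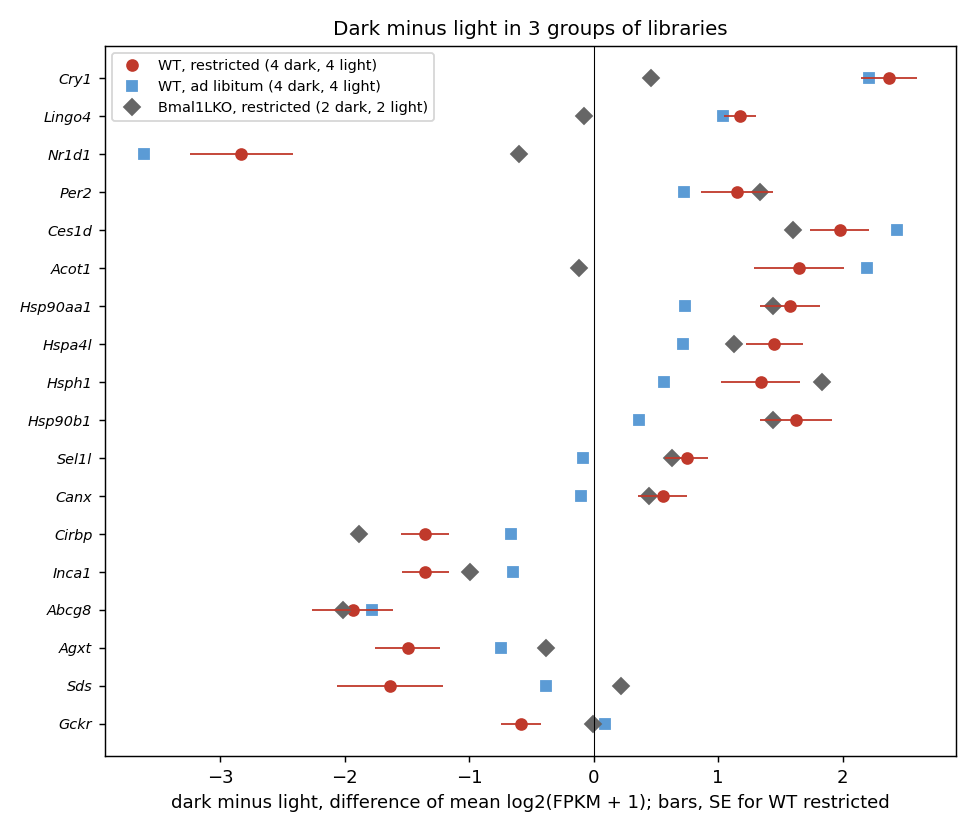
Dark-minus-light difference (difference of mean log2(FPKM + 1)) of named genes in WT restricted (with SE bars), WT ad libitum and Bmal1LKO restricted libraries. Cry1 lies at 2.37, 2.21 and 0.46 in the 3 groups, and Cirbp at -1.35, -0.66 and -1.89.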

How the data were processed

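Liver mRNA of WT mice was sequenced from poly(A) RNA with a stranded TruSeq kit, per the labels' protocols. The authors deposited FPKM values in 1 table of 45808 gene rows, and the submitters' processing notes name STAR, featureCounts and GRCm38, with no versions. The sources used here do not give the strand setting. Rows with symbols turned into dates (27) or repeated (4) were left out, and 41828 symbols matched GENCODE M21, the source of coordinates, GC content and length. FPKM summed to 438534 to 697416 a library, so they share no common total. Of low FPKM values (up to 20 reads), 85.3 to 86.5% a library were whole reads within 0.1, which gave the depth.

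Values were tested as log2(FPKM + 1) with limma 3.58.1 in R 4.3.3, for the 9944 genes whose mean over all 67 libraries reached 1 FPKM; genes passed at a Benjamini-Hochberg adjusted p under 0.05. The fit of the 8 libraries had a level per phase; within-phase and between-group contrasts used a level per time or group. The replicate numbers come from the labels, and same-numbered libraries deviated together (correlations of 0.57 to 0.70 over 6 pairs of times), so the number was also fitted as a block. GC and length correction removed a spline of 4 degrees of freedom in each library, for 9581 genes. Named genes were the clock lists, up to 12 called genes in each direction with a mean of at least 5 FPKM and no overlap, and up to 4 called members of each list; genes called only with the block and the ZT20 against ZT16 genes were added after their values were seen. A few genes that these rules select stay in the counts and are left unnamed. The comparison, its members and the 35 gene lists were chosen with earlier results of these data known. Scripts were tested on simulated data. Alternatives were a pseudocount of 0.1, no filter, a filter on the 8 libraries, other scalings, library weights, times as categories, all 23 WT libraries, and leaving out single libraries or times.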

Additional observations from a re-analysis of the deposited data

Results flagged for a closer look

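In 126 groups of 4 libraries (63 named genes in 2 phases), 3 held a library far from the other 3 by Dixon's criterion, and chance gives about 1 in 20. Hspa1b was at 4.021 FPKM in light ZT8 replicate 2 and at 0.762 to 1.05 in the other light libraries. Ccrn4l, a deadenylase gene of the clock output (Noct in RefSeq), was at 7.862 FPKM in the same library and at 2.56 to 2.77 in the others. Pdia3 was at 995.7 FPKM in dark ZT16 replicate 2, the library of lowest depth, and at 438 to 527 in the other dark libraries.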

How the results depend on the processing

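The unpaired count of 6 was 2 with no filter, 10 with scaling to the same sum, 18 with the GC and length correction (7 higher and 11 lower), 73 with all 23 WT libraries in the fit, 25 with library weights, 647 with the replicate block, 146 with block and correction, 0 without both ZT16 libraries (1496 at an unadjusted p under 0.05), 12 without both ZT20 libraries (11 higher), and 2 to 6 with 1 library left out; median-of-ratios scaling gave 4, all higher. The paired count of 647 was 415 with median-of-ratios scaling, 1030 with scaling to the same sum, 146 with the correction, 1847 with times as categories, 1501 without both ZT16 libraries, 1478 without both ZT20 libraries, and 3 to 526 with 1 library left out (5 without ZT4 replicate 1 or ZT8 replicate 2, 280 without ZT16 replicate 1). With no filter, the difference from ad libitum WT called 1 gene and that from Bmal1LKO 55; with 1 library left out they called 0 and 0 to 1. ZT20 against ZT16 called 2 with pseudocount 0.1, 14 with no filter, 1 with the correction, 697 with the block, 352 with both, and 0 to 24 with 1 library left out. ZT8 against ZT4 called 21 with no filter, 2 with scaling to the same sum, 16 with the block, 33 with block and correction, and 0 to 7 with 1 library left out. The cause of these shifts was not tested. Of 1313 values of the 63 named genes under the alternatives, 1146 kept their side of the threshold, uncalled ones staying within the spread. The call was lost in 46 and gained in 112, and 9 without a call moved by more than the spread. Among values called in the main fit or in the alternative, 0 reversed direction. Direction was not checked for values called in neither, and Npas2 went from 0.09 to -0.13 without ZT20 replicate 1. Depth of 9.69 to 21.4 M reads and 2 libraries a time limit what could be seen in genes near 1 FPKM.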
